A study of Mus musculus with 16 samples.

Results

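Reference genes are the genes whose mRNA is used as the denominator when other mRNAs are compared between tissues or treatments, and 8 of them were examined here in mouse muscle after a single dose of the β2-adrenoceptor agonist formoterol. They are Actb, B2m, Gapdh, Hprt, Pgk1, Ppia, Rpl13a and Rplp0. The probe IDs of the array hold a gene number, and a probe was assigned to a gene where its ID held the zero-padded NCBI gene number of that gene. This reading of the IDs is an inference. It found 7 probes for 6 of the 8 genes, and no probe ID held the gene number of B2m or Hprt. A probe was kept where the detection score, which runs from 0 to 1 and reaches 1 for a signal above the negative controls, was 1 on at least 4 of the 16 arrays. This kept 6 probes, 1 for each of 6 genes, among 7596 kept probes of 46120 on the array and 2388 genes that probe IDs could name. A second probe of Pgk1 was detected on 0 arrays, at 1.06 to 1.47 times the array's background, and was left out.

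Each array held tibialis anterior RNA from 1 male wild type C57BL/10 ScSn mouse, 6 to 7 weeks old, on an Illumina Sentrix Mouse-6 BeadChip. Mice received formoterol at 100 µg/kg by intraperitoneal injection, or an equal volume of the saline vehicle, and the muscle was taken 1 h or 4 h later. This gave 4 groups of 4 mice, a saline and a formoterol group for either time. Every mouse was injected, so the groups share handling and injection, and no array held muscle of an uninjected mouse.

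The 8 genes serve basic cell functions, which is why their mRNA is often taken as a constant. Actb encodes cytoplasmic β-actin of the cytoskeleton, Gapdh and Pgk1 encode consecutive enzymes of glycolysis, the pathway that breaks down glucose for ATP in fast muscle, and Ppia encodes cyclophilin A, a prolyl isomerase that assists protein folding. Rplp0 encodes the central protein of the ribosomal stalk and Rpl13a a protein of the large ribosomal subunit, while B2m encodes the light chain of MHC class I and Hprt an enzyme of purine salvage. The β2-adrenoceptor raises cyclic AMP in the muscle fibre, which activates protein kinase A and the transcription factor CREB, a factor that binds the motif TGACGTCA or its shorter core TGACG. The study used Rplp0, under the name 36B4, as the denominator of its qRT-PCR. It states that all probes of this gene were stable on its arrays and took the gene as suitable for this use. Here 1 probe was assigned to it.

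RefSeq promoter windows of build GRCm38.p6, the 250 bases before the start site, were matched for 7 of the 8 genes. The windows of Pgk1 and Ppia are shown because these probes had the steadiest ratio to each other across the arrays. That of Rplp0 is shown because its probe varied least after scaling to the array median, though not by every measure, and the study used this gene as a denominator. All 3 lie on the plus strand, and capitals mark TGACG and CCAAT, on either strand.
Pgk1, chrX:106186850-106187099: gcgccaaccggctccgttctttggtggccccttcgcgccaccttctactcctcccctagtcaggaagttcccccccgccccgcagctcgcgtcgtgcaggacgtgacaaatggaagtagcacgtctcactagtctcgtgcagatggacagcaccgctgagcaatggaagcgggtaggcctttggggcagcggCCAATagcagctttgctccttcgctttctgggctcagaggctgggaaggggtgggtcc
Ppia, chr11:6415617-6415866: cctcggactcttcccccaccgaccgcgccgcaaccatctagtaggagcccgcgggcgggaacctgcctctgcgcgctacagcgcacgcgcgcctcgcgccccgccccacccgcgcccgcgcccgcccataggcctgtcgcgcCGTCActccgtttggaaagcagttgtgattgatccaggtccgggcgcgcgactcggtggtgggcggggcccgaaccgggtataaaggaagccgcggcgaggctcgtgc
Rplp0, chr5:115559217-115559466: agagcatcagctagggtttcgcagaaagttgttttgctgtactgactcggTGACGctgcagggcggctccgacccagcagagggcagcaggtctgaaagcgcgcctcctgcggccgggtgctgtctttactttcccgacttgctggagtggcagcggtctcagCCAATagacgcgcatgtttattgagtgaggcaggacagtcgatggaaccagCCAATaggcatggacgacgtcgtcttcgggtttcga
The full motif TGACGTCA was in none of the 7 windows, against 1.5% of all 32851 windows of this length in the table. The core TGACG was in the windows of B2m, Ppia, Rpl13a and Rplp0, 4 of 7, against 17.8% of all windows, and was not in those of Gapdh, Hprt and Pgk1. The letters CCAAT, the core of the box bound by the factor NF-Y, were in the windows of B2m, Pgk1, Rpl13a and Rplp0, against 33.8% of all windows. A match is a description of the letters, and neither binding nor promoter activity was measured.

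Across the series, the median intensity of the kept probes was 392.7 to 746.1 arbitrary units per array, or 2.33 to 3.74 times the background. Detection reached between 5584 and 8528 probes. Each array was therefore scaled to a common median of 523.5, and levels are given as scaled intensity or its log2. The median intensity before scaling averaged 538.7 in saline and 478.8 in formoterol arrays at 1 h, and 594.0 against 482.3 at 4 h, with overlapping ranges. The arrays lie on 3 slides, of which 1 holds arrays of both times. Myh1 and Actn3, fast-fibre genes, were the 2 of 12 fast muscle markers that probe IDs named among kept probes. Their summed level overlapped between all 4 groups, from 20670 to 27483. None of the slow-fibre, adipocyte or nerve markers could be named.

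The 6 kept probes gave signal of very unequal margin over the background. Gapdh lay at 208 to 267 times the background and reached 60.6 to 76.9% of the brightest probe of its array. Actb lay at 77.2 to 174 times, Pgk1 at 46.4 to 108 times and Ppia at 12.5 to 27.3 times the background. Rpl13a, at 2.01 to 2.94 times, and Rplp0, at 1.73 to 2.75 times, were dim. The detection score was 1 on 16 arrays for 5 probes and on 15 arrays for Rplp0. These margins describe probes and do not rank the transcripts, since probes differ in how well they bind. Several of these genes have processed copies elsewhere in the mouse genome, and whether a probe also binds transcripts of such copies was not tested.

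After formoterol, none of the 6 probes passed the test against saline at either time, and the largest differences were in Ppia at 1 h and Pgk1 at 4 h, both lower with formoterol. The test was limma over all 16 arrays, with p-values adjusted by the Benjamini-Hochberg method over the 7596 kept probes and a call at an adjusted p under 0.05. At 1 h it called 0 of 6 probes, against 2.78% of all kept probes (211). No probe of the 6 had groups without overlap at 1 h, against 8.44% of all kept probes. At 4 h it called 0 of 6, against 15.9% of all kept probes (1206). Before adjustment, 2 of the 6 probes had p under 0.05 at 1 h and 1 at 4 h, against 14.0% and 31.1% of all kept probes, and the methods' t-test called 0 of 6 at each time. The 95% intervals of the 12 changes ran from 0.666-fold to 1.23-fold, and changes within these bounds are not shown to be absent.

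**Figure D1:**
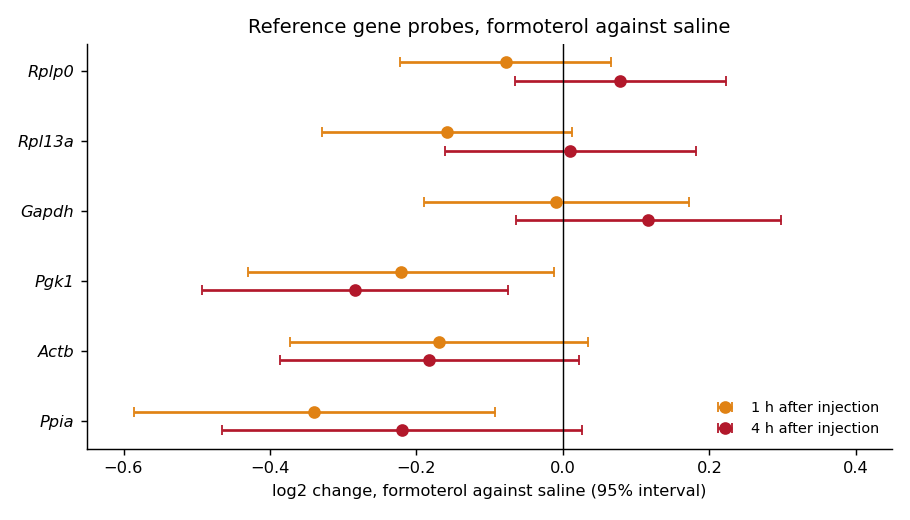
Log2 change of each of the 6 kept probes, formoterol against saline, at both times after injection, with the 95% interval of limma's fit (4 mice a group). The points of Pgk1, Actb and Ppia lie left of 0 at both times, and the intervals of Pgk1 at 1 h and 4 h and of Ppia at 1 h do not reach 0.

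Pgk1, the phosphoglycerate kinase that makes ATP in glycolysis, was the probe closest to a call between formoterol and saline. At 1 h its scaled intensity was 13796, 13502, 10372 and 10957 in the 4 saline mice and 11174, 10344, 9468 and 10485 in the 4 formoterol mice. At 4 h it was 12375, 15087, 14199 and 12480 in saline and 12244, 10049, 10851 and 11285 in formoterol. At 4 h every formoterol mouse was below every saline mouse, by a small gap between 12244 and 12375, whereas at 1 h the groups overlapped. Groups of 4 that did not overlap, with formoterol lower, were found at 4 h for 8.85% of all kept probes. The change was −0.28 in log2 (SE 0.10, adjusted p = 0.0604 by limma) at 4 h, or 0.822-fold, and −0.22 (SE 0.10, adjusted p = 0.327) at 1 h. The exact two-sided permutation test over the 8 mice at 4 h gave p = 0.0286, the smallest that 4 against 4 mice allow. Any probe whose groups do not overlap gets this value, so it restates the lack of overlap, and it was not adjusted.

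Whether Pgk1 was called at 4 h depended on the scaling and on single arrays. The main fit did not call it, and 4 of the 16 fits without 1 array did. Quantile normalization gave −0.42 (adjusted p = 0.0038) and a fit with the slide as a fixed block −0.28 (adjusted p = 0.0278), both called by limma. On slide 1 alone, with 3 against 3 mice, the change was −0.33 (adjusted p = 0.0841). Without the brightest array, saline at 4 h replicate 2, and the 2 dimmest, formoterol at 4 h replicates 2 and 3, it was −0.14 (adjusted p = 0.58). With the signal over background of each array as a covariate it was −0.23 (adjusted p = 0.103).

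Ppia had the largest difference at 1 h. At 1 h its scaled intensity was 4407, 3490, 3020 and 2978 in saline and 3022, 2804, 2507 and 2541 in formoterol. At 4 h it was 3511, 3815, 3977 and 3243 in saline and 3682, 2896, 2812 and 3136 in formoterol. At each time 3 of 4 formoterol mice were below all saline mice and 1 was within their range. The change was −0.34 (SE 0.12, adjusted p = 0.165 by limma) at 1 h, or 0.790-fold, and −0.22 (SE 0.12, adjusted p = 0.212) at 4 h. Without the 3 arrays of extreme median signal the latter was −0.07 (adjusted p = 0.859). Saline at 1 h replicate 1 was the highest of the 16 arrays, and without it the change at 1 h was −0.22 (adjusted p = 0.5). On slide 2 alone the change at 1 h was −0.43 (adjusted p = 0.0621) and on slide 3 alone −0.25 (adjusted p = 0.377), with 2 against 2 mice each.

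Actb varied in the same direction. At 1 h its scaled intensity was 18021, 19564, 17573 and 17524 in saline and 17990, 15179, 15765 and 15782 in formoterol. At 4 h it was 20610, 24361, 21220 and 18007 in saline and 21045, 16706, 19964 and 16481 in formoterol. The groups overlapped at both times, with 3 formoterol mice below all saline mice at 1 h and 2 at 4 h. The change was −0.17 (SE 0.10, adjusted p = 0.473 by limma) at 1 h and −0.18 (SE 0.10, adjusted p = 0.211) at 4 h. Quantile normalization gave −0.34 at 4 h and a call (adjusted p = 0.02). Without the 3 arrays of extreme median signal named for Pgk1 the change at 4 h was −0.10 (adjusted p = 0.707), and with signal over background as a covariate −0.11 (adjusted p = 0.368).

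Gapdh, the glyceraldehyde phosphate dehydrogenase that acts just before phosphoglycerate kinase, did not follow Pgk1. At 1 h its scaled intensity was 43715, 47573, 47155 and 39485 in saline and 42013, 44193, 44187 and 46064 in formoterol. At 4 h it was 42852, 35026, 44554 and 46748 in saline and 42520, 46898, 47454 and 45628 in formoterol. All 4 formoterol values at 1 h lay within the saline range, and at 4 h 2 formoterol mice lay above it. The change was −0.01 (SE 0.09, adjusted p = 0.985 by limma) at 1 h and 0.12 (SE 0.09, adjusted p = 0.375) at 4 h. The value at 4 h turned to −0.18 without scaling of arrays and to −0.02 without the 3 arrays of extreme median signal.

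The ribosomal probes Rplp0 and Rpl13a had the smallest differences at 4 h, whereas at 1 h Gapdh had the smallest. Rplp0 had scaled intensities of 404, 366, 389 and 416 in saline and 351, 361, 376 and 404 in formoterol at 1 h. At 4 h they were 351, 385, 393 and 388 in saline and 379, 427, 396 and 399 in formoterol. Formoterol mice tended to the low side of the saline range at 1 h, with 2 below it, and to the high side at 4 h, with 3 above it. The change was −0.08 (SE 0.07, adjusted p = 0.703 by limma) at 1 h and 0.08 (SE 0.07, adjusted p = 0.462) at 4 h, and the latter turned to −0.22 without scaling. The difference between the response at 4 h and that at 1 h was 0.16 (SE 0.10, adjusted p = 0.548). Rpl13a ran from 403 to 540 over the 16 arrays, and its change was −0.16 (SE 0.08, adjusted p = 0.404) at 1 h and 0.01 (SE 0.08, adjusted p = 0.947) at 4 h. The sign of the last value turned under 9 of 32 alternatives. With the background subtracted, the changes at 1 h were −0.28 for Rpl13a (adjusted p = 0.275) and −0.17 for Rplp0 (0.534), and that of Rpl13a was then second to Ppia among the 6.

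**Figure D2:**
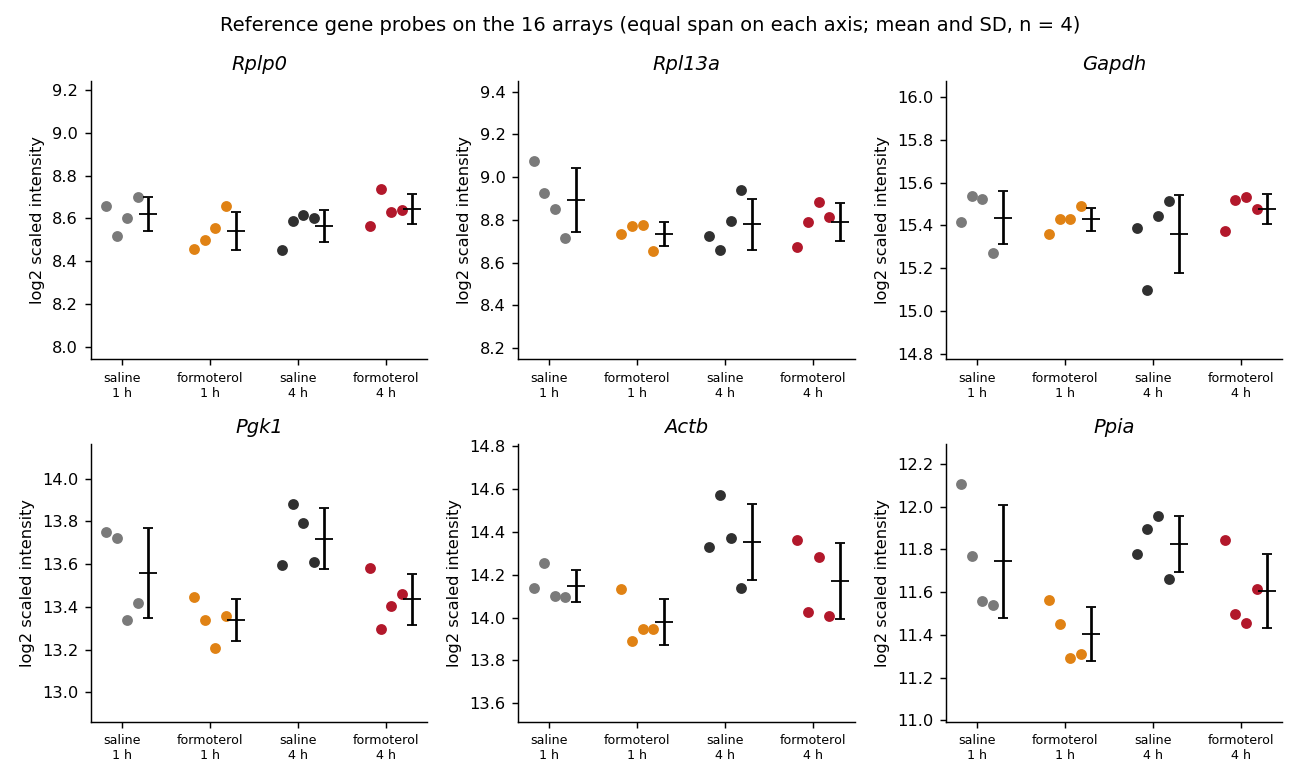
Log2 scaled intensity of each kept probe on the 16 arrays, 1 point per mouse, with the mean and SD of each group of 4 beside the points; each axis spans the same number of log2 units. The formoterol points of Pgk1 at 4 h, up to 13.58, lie below the 4 saline points, from 13.60, and the points of Rplp0 span the narrowest range.

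All 6 probes were lower with formoterol at 1 h, with a median log2 change of −0.16 against −0.004 over all kept probes, although the change of Gapdh, −0.01, turned in sign under 7 of 33 alternatives. These were quantile normalization, normexp with quantile normalization, background subtraction, slide 3 alone (0.06), and leaving out saline at 1 h replicate 2 or 3 (0.02 each) or formoterol at 1 h replicate 1 (0.01). At 4 h 3 were lower and 3 higher, with a median of −0.09 against 0.02. The 6 probes share arrays and scaling, so their signs are not independent. The difference between the responses at the 2 times was called for 0 of 6, against 3.52% of all kept probes (267), with 0 of 6 under an unadjusted p of 0.05, against 13.1%. Saline at 4 h against saline at 1 h, a comparison of control mice, was also called for 0 of 6, against 0.145% of all kept probes (11), and 1 of 6 had an unadjusted p under 0.05, against 13.8%. That probe was Actb, higher at 4 h by 0.21 (SE 0.10, adjusted p = 0.36 by limma). With the slide as a fixed block this difference was −0.03.

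A test of any difference among the 4 groups, limma's moderated F test, called 1 of the 6 probes, against 17.2% of all kept probes (1308). The called probe was Pgk1 (adjusted p = 0.0458), and Actb (0.0589) and Ppia (0.0609) lay just above the threshold. Before adjustment 3 of 6 had p under 0.05, against 32.2% of all kept probes. The 4 group means of Pgk1 spanned 0.38 in log2, from formoterol at 1 h (13.34 ± 0.10, SD, n = 4) through formoterol at 4 h (13.44 ± 0.12) and saline at 1 h (13.56 ± 0.21) to saline at 4 h (13.72 ± 0.14). Neighbours in this order differed by less than the larger of their SDs. Actb and Ppia also had their lowest mean in formoterol at 1 h and their highest in saline at 4 h, with spans of 0.37 and 0.42. The spans of Rpl13a, Gapdh and Rplp0 were 0.16, 0.12 and 0.10, against a median of 0.20 over all kept probes. The call of Pgk1 held in 15 of 30 alternatives. It was lost without any 1 of 10 arrays: saline at 1 h replicate 2, formoterol at 1 h replicates 2, 3 and 4, saline at 4 h replicates 1, 2 and 3, and formoterol at 4 h replicates 2, 3 and 4, with adjusted p from 0.0513 to 0.11.

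Over the 16 arrays, the spread of the 6 probes fell into a narrower and a wider set. The SD of log2 scaled intensity was 0.082 for Rplp0, 0.114 for Rpl13a and 0.115 for Gapdh. It was 0.187 for Actb, 0.198 for Pgk1 and 0.231 for Ppia. The median over all kept probes was 0.144, and 3.32% of kept probes had a smaller SD than Rplp0, 24.6% than Rpl13a, 25.4% than Gapdh, 74.4% than Actb, 77.7% than Pgk1 and 84.6% than Ppia. Within groups, the residual SD was again lowest for Rplp0, at 0.079, and highest for Ppia, at 0.182, with a median of 0.127 over all kept probes.

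This order depended on how the signal was scaled. The signals of Rplp0 and Rpl13a include a background that is a large share of them, as their margins show. With the background of each array subtracted before scaling, an alternative chosen after seeing the data, the SD of Rplp0 was 0.155, that of Rpl13a 0.183 and that of Gapdh 0.192. Actb then had the lowest SD, 0.147, and Pgk1 had 0.170 and Ppia 0.215. Without any scaling, Gapdh varied least, at 0.183, and Ppia most, at 0.457. The pairwise measure M, the mean SD of the log2 ratios of a probe to the other 5, uses ratios within an array and does not depend on scaling. It ran from 0.181 for Rpl13a through 0.185 for Pgk1, 0.191 for Rplp0, 0.201 for Actb and 0.206 for Ppia to 0.213 for Gapdh. M was taken on intensities that include the background, so its order rests on the background too.

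**Figure D3:**
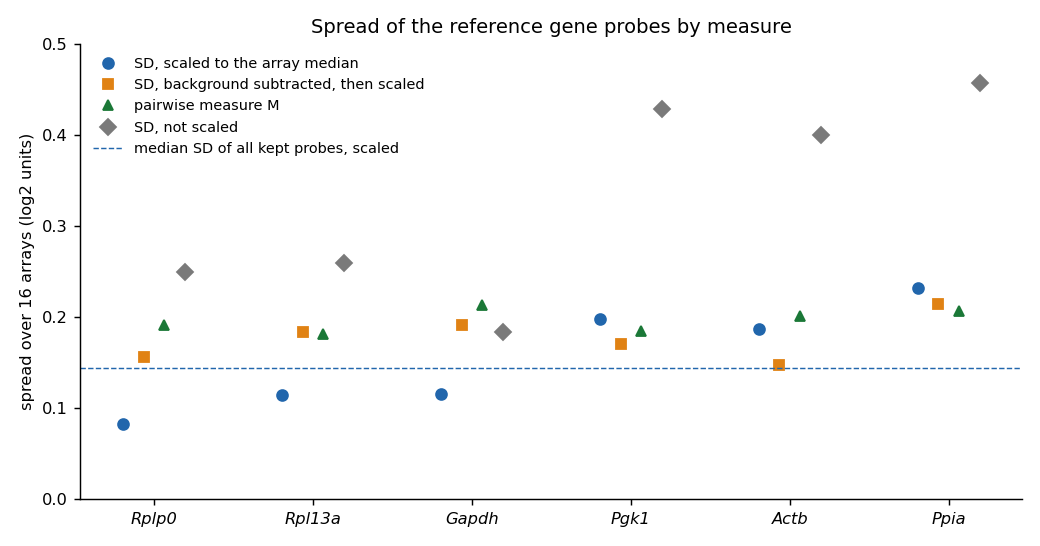
Spread over the 16 arrays, in log2 units, of each kept probe by 4 measures: the SD after scaling to the array median, the SD after background subtraction and scaling, the pairwise measure M, and the SD without scaling. The dashed line is the median SD of all kept probes after scaling, 0.144. Rplp0 has the lowest scaled SD, 0.082, and Actb the lowest after background subtraction, 0.147.

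The pairs show which probes moved together. The log2 ratio of Pgk1 to Ppia had the smallest SD of the 15 pairs, 0.100, and the scaled levels of both correlated at Pearson r = 0.90 over the 16 arrays, which share their scaling. Gapdh and Rpl13a followed with an SD of 0.114 (r = 0.51), and Actb and Pgk1 with 0.125 (r = 0.79). Gapdh and Ppia made the least stable pair, with an SD of 0.290 (r = −0.32), and the 2 glycolytic genes Gapdh and Pgk1 the next, with 0.266 (r = −0.41). At 4 h the ratio of Gapdh to Pgk1 was higher with formoterol by 0.40 in log2, from 1.22 to 1.91 in saline and from 1.80 to 2.22 in formoterol mice. In exact two-sided permutation tests of the 15 ratios at both times, 30 in all, the smallest p was 0.0571 and the smallest adjusted p 0.343. Limma was also run over all kept probes with 1 reference probe as the scale of each array. With Pgk1 as the scale, Gapdh (adjusted p = 0.0374) and Rplp0 (0.36 in log2, adjusted p = 0.0415) were called higher at 4 h. So were 2726 of all 7596 kept probes, so these 2 calls do not single out Gapdh or Rplp0. With Rplp0 as the scale Pgk1 was called lower at 4 h (adjusted p = 0.0477), as were 734 of all 7596. With Gapdh as the scale Pgk1 was not called, at −0.40 (adjusted p = 0.0815).

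The scaled level of 4 probes followed the median intensity of the array. Over 16 arrays, Pearson's r between log2 scaled level and log2 array median was 0.81 for Pgk1 (Spearman's rho 0.79), 0.79 for Ppia (rho 0.80), 0.66 for Actb (rho 0.60) and −0.74 for Gapdh (rho −0.70). Permutation p-values over 100000 draws, adjusted over the 6 probes, were 0.00084, 0.00105, 0.00876 and 0.0018 for r, and 0.00168, 0.00168, 0.0252 and 0.00776 for rho. For Rpl13a r was −0.15 (adjusted permutation p = 0.569, rho −0.29, adjusted 0.327) and for Rplp0 −0.19 (0.569, rho −0.14, 0.594). Without the 2 arrays farthest from the median intensity, saline at 4 h replicate 2 and formoterol at 4 h replicate 2, r was 0.72 for Pgk1, 0.82 for Ppia, 0.46 for Actb and −0.54 for Gapdh. Within slide 1 it was 0.95, 0.94, 0.89 and −0.86, and within slide 2 0.53, 0.80, 0.34 and −0.40, with 6 arrays each, while slide 3 held too few. For Rpl13a and Rplp0 r was −0.78 and −0.55 within slide 1, and 0.50 and 0.39 within slide 2. Their low r over all arrays thus pools slides of opposite sign. The array median enters both sides of this relation, since the scaled level is the intensity divided by it. The permutations did not keep this link and ignored groups and slides. Their p-values therefore cannot separate a relation of the probe from the shared median. The median was lower on average in formoterol arrays at both times, and with the signal over background of each array as a covariate the changes at 4 h were −0.23 for Pgk1, −0.15 for Ppia, −0.11 for Actb and 0.05 for Gapdh. At 1 h they were −0.20, −0.31, −0.14 and −0.04. Each of these 8 values kept its sign and none was called by limma.

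**Figure D4:**
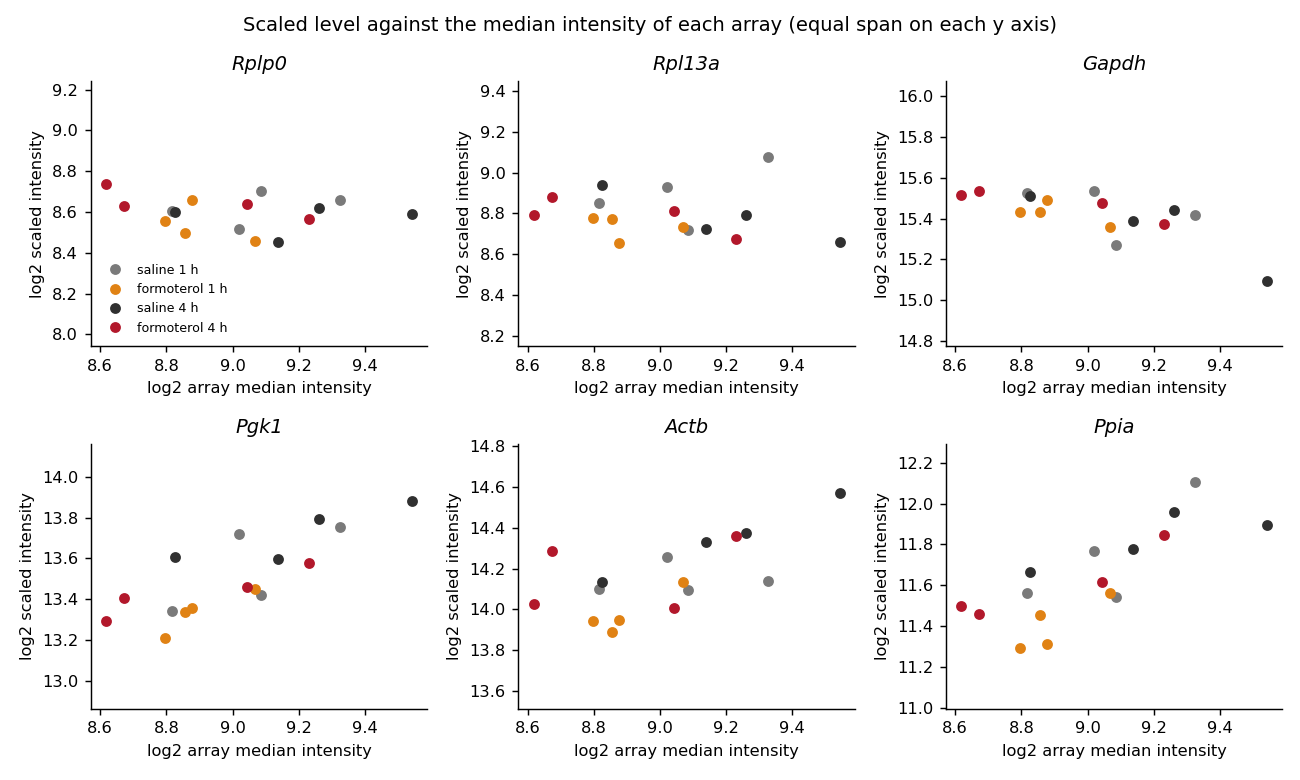
Log2 scaled intensity of each kept probe (y axis) against log2 of the median intensity of kept probes on the array (x axis), 1 point per array, coloured by group. Pgk1, Ppia and Actb rise from left to right (r = 0.81, 0.79 and 0.66), Gapdh falls (r = −0.74), and Rplp0 and Rpl13a do neither.

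Using each reference probe as the denominator changed how many of all probes were called and in which direction. Apart from low values, dividing by a probe takes that probe's own change out of the change of every other probe. The direction of the calls thus largely follows from the denominator, and the calls under 1 denominator are not independent. With the array median as the scale, 211 probes were called at 1 h, 67.3% of them higher with formoterol, and 1206 at 4 h, 55.5% higher. With Rplp0, 179 probes were called at 1 h (88.3% higher) and 1125 at 4 h (34.8% higher), of which 925 were among the 1206. Gapdh gave 113 calls at 1 h (81.4% higher) and 773 at 4 h (40.4% higher). Pgk1 gave 275 at 1 h (95.6% higher) and 2805 at 4 h (97.2% higher), and 745 of the 2805 were among the 1206. Ppia gave 883 at 1 h (98.8% higher) and 754 at 4 h (91.4% higher), and Actb 208 (94.2% higher) and 857 (90.1% higher). Rpl13a gave 362 (95.3% higher) and 695 (61.3% higher). The mean log2 of the 6 probes gave 620 (95.6% higher) and 1157 (77.9% higher). The median log2 change of all kept probes, near 0 under the array median, moved to 0.33 at 1 h with Ppia and to 0.30 at 4 h with Pgk1, and to −0.10 at 4 h with Gapdh. The own changes of these denominators were −0.34, −0.28 and 0.12.

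**Figure D5:**
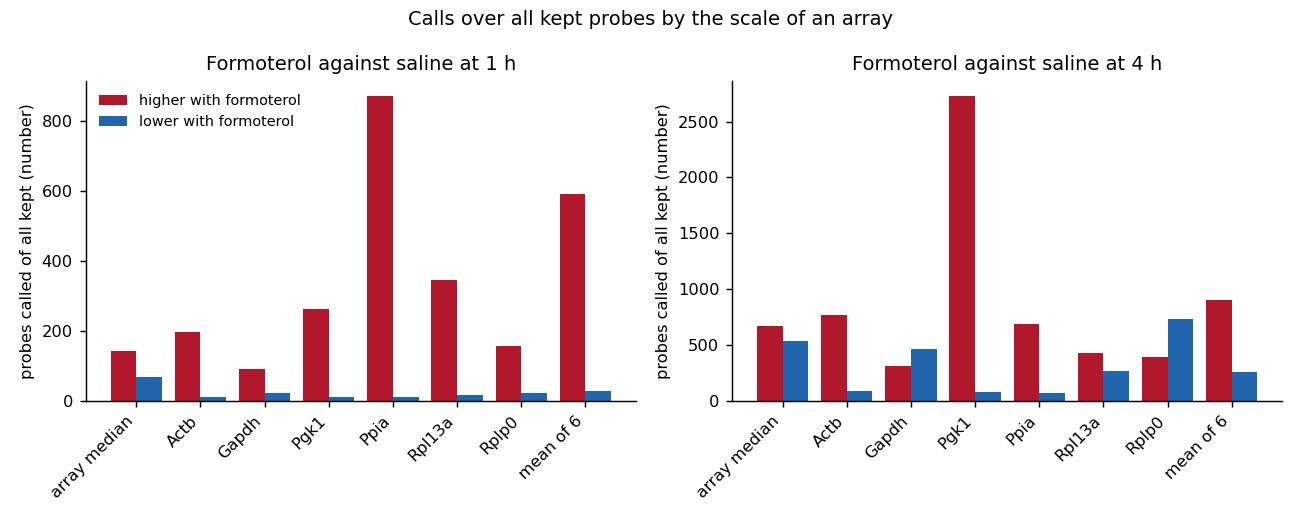
Number of kept probes called higher and lower with formoterol (adjusted p under 0.05 by limma) at 1 h and at 4 h, with each array scaled by its median, by 1 of the 6 reference probes, or by their mean log2. With Pgk1 as the scale, 2726 probes were called higher and 79 lower at 4 h, and with Rplp0 391 higher and 734 lower.

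Of the genes chosen for qRT-PCR in the study, 4 are described here. They were called at 4 h under every denominator tried and do not stand for the others. Nr4a2, an orphan nuclear receptor also called Nurr1, was higher with formoterol at 1 h by 1.44 to 1.90 in log2 over the 8 scales. Cebpb, a transcription factor of the C/EBP family, was higher at 4 h by 1.65 to 2.05. Both were called under all 8 at both times. Foxo1 and Stat3, both transcription factors, were called at 4 h under all 8, at 0.86 to 1.19 and 0.70 to 1.10. With Actb in place of the array median, the change at 1 h went from 1.46 to 1.84 for Nr4a2. For Cebpb it went from 0.77 to 0.94. The change of Actb itself at 1 h was −0.17, so Nr4a2 moved by more than the change of the denominator, and Cebpb by about as much. Foxo1 at 4 h went from 0.92 to 0.86 with Gapdh, less than the 0.12 of Gapdh itself. Low values were raised to a floor anew under each scale, so the ranges of Nr4a2 and Foxo1 can hold an effect of the floor.

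Among 38 further reference genes from a list, 17 were measured. Rps9, of the small ribosomal subunit, had −0.32 (adjusted p = 0.0505 by limma) at 4 h. Rpl32, of the large subunit, had −0.32 (0.0982) at 4 h, and Rpl27, of the same subunit, −0.32 (0.0977) at 1 h. The median SD of the 17 genes over the arrays was 0.145, next to 0.144 for all kept probes. The 3 lowest, chosen after their values were seen, were 0.074 for Ipo8, a nuclear import receptor, with a smaller SD in 1.45% of kept probes, 0.089 for Csnk2a2, a kinase subunit, and 0.098 for Oaz1, which regulates polyamine synthesis.

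The other genes of the pathways these proteins belong to were counted list by list, beside the 2.78% of all kept probes called at 1 h and 15.9% at 4 h. Of 13 further glycolytic enzymes 10 were measured, and 1 was lower and 0 higher at 4 h, with 0 called at 1 h. It was Eno1, an enolase gene of a later step in the pathway, at −0.26 (SE 0.08, adjusted p = 0.035 by limma). Its mean scaled intensity was 429. Eno3, also an enolase gene, had a mean of 31891 and a change of 0.04 at 4 h (adjusted p = 0.739 by limma). With the probe of largest change in place of the brightest, 1 was also higher at 4 h. Of 44 proteins of the ribosomal stalk and large subunit 34 were measured, and 0 were called at either time, with a median log2 change of −0.15 at 1 h and −0.06 at 4 h. Arpc3, of the Arp2/3 complex that branches actin filaments, was the 1 of 3 measured actins and actin partners that was called, higher at 4 h by 0.53 (adjusted p = 0.00508). None of the 4 measured cyclophilins and FK506-binding proteins was called. Impdh2, which makes guanine nucleotides, was the 1 called of 4 measured purine genes, higher at 4 h by 0.59 (adjusted p = 2.6e-05). H2-T23, a nonclassical MHC class I gene whose product pairs with the B2m protein, was the 1 called of 2 measured, with a change of −0.36 at 4 h (adjusted p = 0.00685).

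Whole muscle was measured, so fewer cells of a type and less RNA per cell cannot be told apart. Of 6 fibroblast markers 4 were measured, Col1a1, Col1a2, Col3a1 and Dcn, and 2 were called lower with formoterol at 1 h and 3 at 4 h, against 2.78% and 15.9% of all kept probes called in either direction. Their summed scaled intensity was 20601 to 25212 in saline and 14192 to 18200 in formoterol at 1 h, and 21539 to 31779 against 17049 to 19266 at 4 h, with no overlap at either time. Of 5 red blood cell markers 3, all globins, were measured, and 2 were higher at 4 h, with 0 called at 1 h. The sum of the 3 was 6085 to 19957 in saline and 25066 to 42900 in formoterol at 4 h. At 1 h it was 14231 to 38943 in saline and 22594 to 40501 in formoterol, so the saline mice at 4 h had the lowest values. The 3 measured leukocyte markers held 1 higher call at 4 h and the 2 endothelial ones 1 lower call. The smooth muscle marker Acta2 was not called. Actb, Pgk1 and Ppia are expressed in these cells too, and the part of other cell types in their lower values was not tested.

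The named genes whose level was most like that of each reference gene over the 16 arrays were found by Pearson's r among 2387 others, all sharing scaling and arrays. For Pgk1 they were Ak3 (r = 0.94), a mitochondrial adenylate kinase family member, and Jkamp (0.92). For Ppia they were Rpl3 (0.93) and Pgk1 (0.90), and for Actb Btbd1 and Nop53 (both 0.90). For Gapdh they were Taz and Clns1a (both 0.88), for Rpl13a Anapc15 (0.83) and Arf5 (0.80), and for Rplp0 Tfdp1 (0.69) and Zranb1 (0.68). Of these, Ak3 was called between formoterol and saline at 4 h, at −0.22 (adjusted p = 0.0424 by limma).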

How the data were processed

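Tibialis anterior RNA of 16 mice, 4 in each of 4 groups named by the labels, was hybridised to 16 single-colour Illumina arrays by the authors. The deposited average bead intensity per probe, from BeadStudio 1.5.1.3 per the submitters' processing notes, ran from 86.1 to 69801 without normalization. The deposited detection score, a fraction from 0 to 1 that the authors also took from BeadStudio, was given per probe and array. The authors also deposited normalized values, the ratio of an intensity to its array's median over detected probes, and the same ratio computed here differed by a relative 0.0025 at most.

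From the intensities, the 7596 of 46120 probes with a score of 1 on at least 4 arrays were kept. Each array was scaled to a common median of 523.5 of these probes, values under 257.5 (percentile 1) were raised to that floor, and values were put on a log2 scale. The 4 group means were estimated by limma 3.58.1 (R 4.3.3) with 12 residual and 5.97 prior degrees of freedom. Contrasts compared formoterol with saline at either time, the 4 h response with the 1 h response, and the saline groups of both times, and a moderated F test covered all groups. P values were adjusted over all kept probes by the Benjamini-Hochberg method. Exact permutation tests cannot go below 0.0286 with 4 against 4 mice. Background is the median intensity of probes with a score under 0.5 on the array. Python 3.11.15 with numpy 2.4.6, pandas 2.3.3 and scipy 1.17.1 handled the tables, and the fit was tested on simulated data. Bead counts and their depth were not used, and the number of arrays limits the precision.

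Probe IDs gave names to 2591 kept probes (2584 by gene number and 7 by accession) through the RefSeq gene table of GRCm38.p6, and 5005 kept probes have none. Where a gene had several kept probes, lists used the brightest. Every kept probe of the 8 genes was named, with up to 4 genes a list by smallest adjusted p, and for each reference gene the 2 most like it by Pearson's r. Eno3 was named beside Eno1 outside this rule. Results of 2 genes, and a list's count of calls that needs 1 of them, are not reported here. The members and lists were chosen with earlier results of these data known. Replicate numbers were no pairing: deviations of same-numbered mice from their group means correlated between −0.28 and 0.30.

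Alternatives were quantile normalization, normexp with quantile normalization, the authors' ratio values, no scaling, no filter, no floor, an offset of 50, the methods' t-test, eBayes with trend and robust, slide as a fixed or random block, single slides, a block for replicate numbers, each array left out in turn, the 3 arrays of extreme median signal left out, signal over background as a covariate, and each reference probe as the scale. Background subtraction was added after seeing the data.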

Additional observations from a re-analysis of the deposited data

How the results depend on the processing

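For the contrasts of the 6 reference probes, 740 of 750 single values over 24 results kept their side of the threshold. Of the others 10 gained a call, and 42 uncalled values changed sign. The test of any difference is not in this count and was less steady. Over 30 alternatives its call of Pgk1 was lost in 15, and Actb gained a call in 5 and Ppia in 9. At 4 h, 2 of 6 probes were called with quantile normalization and with normexp and quantile normalization (Pgk1 and Actb), and 1, Pgk1, with the slide as a fixed or a random block. Leaving out single arrays gave 0 to 1 call at 4 h and 0 to 3 in the test of any difference, and 0 calls at 1 h, for the difference between times and between the saline groups. The 1 call came without saline at 1 h replicate 1 or 3, saline at 4 h replicate 4 or formoterol at 4 h replicate 1. The test of any difference called 3 probes with quantile normalization and with normexp and quantile normalization, 2 with the slide as a fixed block and with the replicate number as a block (Pgk1 and Ppia), and 0 without scaling, without the filter, with background subtracted, with signal over background as a covariate and without the 3 arrays of extreme median signal. The replicate block changed no other call of these probes. The median SD of the 6 probes, 0.151, was 0.330 without scaling and 0.135 to 0.156 without single arrays.

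Over all kept probes, calls at 1 h (211) were 54 without scaling, 73 without the filter, 633 on slide 2 alone, 40 on slide 3 alone and 6 with the methods' t-test. With reference probes as the scale they were 113 for Gapdh, 883 for Ppia, 362 for Rpl13a and 620 for the mean of 6. Calls at 4 h (1206) were 476 without scaling, 501 without the filter, 546 without the 3 extreme arrays and 393 with the methods' t-test. They were 773 for Gapdh, 2805 for Pgk1, 754 for Ppia and 695 for Rpl13a. Leaving out single arrays gave 133 to 266 at 1 h, with the 3 lowest counts, 133, 138 and 135, without saline replicate 1, saline replicate 2 and formoterol replicate 1, and 879 to 1777 at 4 h. The cause of these shifts was not tested. The methods' t-test as run here called fewer probes at the earlier time than the study reports for its own test. Its count at the later time was the same as the study's. The reason for the mismatch at the earlier time was not tested. The replicate block gave 216 and 1275 calls, and 5 of 16 arrays correlated best with an array of their own number.

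Signal over background limits Rplp0 and Rpl13a most, since at under 3 times the background a change of the transcript gives a smaller change of the signal. Gapdh lay at 60.6 to 76.9% of the brightest probe, and whether a ceiling of the signal limited its changes was not tested. With 4 mice a group, changes inside the intervals given cannot be told from none. Each gene rests on 1 probe, whose sequence was not used here.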
